A study of Mus musculus with 29 samples.

Results

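The immediate early genes of neuronal activity examined here are Fos, Fosb, Junb, Egr1, Egr2, Nr4a1, Ier2, Arc, Dusp6 and Ptgs2. They were taken by gene symbol from the annotation of the array, which matched 10 of 12393 genes and 12 of 22626 probe sets; Egr2 and Ptgs2 have 2 probe sets each, and the brighter one stands for the gene unless stated. The study measured total RNA of mouse prefrontal cortex and caudate-putamen (CPu, the dorsal striatum) on 29 Affymetrix expression arrays, 18 prefrontal and 11 of the CPu. TgS mice express the human AChE-S variant of acetylcholinesterase, the enzyme that breaks down acetylcholine, TgR mice express human AChE-R, and FVB/N is the parent strain of both lines. Per the labels, MPTP, a compound whose metabolite damages dopamine neurons, was injected 4 times at 20 mg/kg with 2 h between injections, 80 mg/kg in all, and tissue was taken 4 days later.

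The groups were MPTP-exposed TgS, TgR and FVB/N and naive TgS, TgR and FVB/N in each region. Naive prefrontal cortex has 4 arrays in each strain, MPTP-exposed TgR CPu has 1, and every other group has 2. The labels state 6 mice per strain with MPTP and 6 with saline, 36 in all. The sources used here do not say whether the naive arrays hold RNA of mice given saline, how many mice make up an array, their age or sex, which promoter drives each transgene or how many founder lines there were. Sex as read from Xist and a Y-linked gene is given below. Nothing states that arrays of a group come from separate animals, so p-values measure the spread between arrays, which may be technical. One free-text label of naive FVB/N CPu replicate 2 calls it MPTP-exposed, whereas its title, source and treatment entries say naive; it was kept as naive.

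Immediate early genes are transcribed within minutes of a stimulus from regulators that already sit in the cell, without new protein synthesis. In neurons, calcium entry and ERK signalling activate CREB, which binds cAMP response elements (CRE), and serum response factor with its partners, which binds serum response elements. Transcripts of most of these genes are short-lived, so their levels in a dissected brain reflect the last hour or so before tissue was frozen. Fos, FosB and JunB are subunits of the AP-1 transcription factor, Egr1 and Egr2 are zinc finger transcription factors, and Nr4a1 is an orphan nuclear receptor. Ier2 is a nuclear protein linked to transcription, Arc drives internalisation of AMPA receptors at synapses, Dusp6 is a phosphatase that switches ERK off, and Ptgs2 is cyclooxygenase-2, the inducible enzyme of prostaglandin synthesis.

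RefSeq promoter sequence of build GRCm38.p6 was found for 7 of the 10 genes. The 150 bases upstream of an annotated start are shown for 6 of them, read 5′ to 3′ on the gene's strand. The window of the remaining gene, Dusp6, is not shown and held none of the motifs marked here. Dusp6 varied together with the other genes as well (Pearson's r with Arc 0.922 after group and set means were taken out). The 6 shown are therefore not a selection by shared high and low arrays. Capitals mark the CRE half-site (TGACG, or CGTCA on the other strand), the serum response element (CArG box, either strand) and the TATA box TATAAA (same strand).
Fos, chr12:85473740-85473889, plus strand: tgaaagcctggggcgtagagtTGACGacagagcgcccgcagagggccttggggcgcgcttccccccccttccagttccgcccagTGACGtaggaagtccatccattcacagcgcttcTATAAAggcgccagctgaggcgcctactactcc
Fosb, chr7:19310046-19310195, minus strand: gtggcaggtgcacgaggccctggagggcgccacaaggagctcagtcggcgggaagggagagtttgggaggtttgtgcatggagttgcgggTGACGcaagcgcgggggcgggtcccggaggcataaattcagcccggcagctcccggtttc
Junb, chr8:84978749-84978898, minus strand: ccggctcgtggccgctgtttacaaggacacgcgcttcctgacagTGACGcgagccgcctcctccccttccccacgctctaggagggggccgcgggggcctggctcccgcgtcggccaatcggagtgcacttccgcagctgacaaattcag
Egr2, chr10:67537719-67537868, plus strand: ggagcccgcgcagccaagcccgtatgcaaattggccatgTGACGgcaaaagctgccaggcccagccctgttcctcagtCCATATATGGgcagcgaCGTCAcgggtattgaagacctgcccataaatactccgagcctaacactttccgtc
Nr4a1, chr15:101266696-101266845, plus strand: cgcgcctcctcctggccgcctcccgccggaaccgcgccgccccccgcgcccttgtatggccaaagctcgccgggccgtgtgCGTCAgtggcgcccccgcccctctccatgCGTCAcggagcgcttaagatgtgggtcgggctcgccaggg
Ptgs2, chr1:150099881-150100030, plus strand: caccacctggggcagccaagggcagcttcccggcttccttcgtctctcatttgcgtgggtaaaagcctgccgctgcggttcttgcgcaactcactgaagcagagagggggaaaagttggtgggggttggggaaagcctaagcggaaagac

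Over the 250 bases upstream of each start, a CRE half-site lay in 5 of the 7 genes (Fos, Fosb, Junb, Egr2 and Nr4a1), and in 19.8% of 27025 mouse genes counted the same way, over all annotated starts (17.8% of 32851 single promoters of that length). The Fos copies lie at -129 to -125 and at -66 to -62 from the start, and its TATA box, found in 7.59% of promoters, at -33 to -28. The Egr2 window, 1 of several annotated starts of that gene, holds a CArG box at -72 to -63 between its 2 CRE half-sites; such a box lay in 1.47% of promoters. The motifs do not overlap one another in these windows. These matches describe the letters of the windows and say nothing of binding in these samples.

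Array median log2 signal ran from 7.61 to 7.78. Naive prefrontal replicates 1 and 2, 6 arrays over the 3 strains, stood apart from replicates 3 and 4, whose source labels spell the region differently. In replicates 1 and 2, Xist, the RNA of the inactive X chromosome, read 8.62 to 10.61 log2, against 6.78 to 7.24 in the other 23 arrays. The Y-linked Eif2s3y read 3.42 to 3.83 in these 6, against 8.41 to 9.20 in the other 23. By these genes the 6 arrays read as female RNA and the other 23 as male RNA. The bioB hybridisation control read 7.26 to 7.89 in the 6, against 6.48 to 6.97 in naive prefrontal replicates 3 and 4. The MPTP prefrontal arrays had bioB at 7.32 to 7.76, in the range of replicates 1 and 2 and above that of replicates 3 and 4. Their Xist (6.93 to 7.12) and Eif2s3y (8.71 to 9.03) read as male, as in replicates 3 and 4. Replicates 3 and 4 thus differ from the MPTP arrays in bioB, and replicates 1 and 2 in sex. The dap poly-A control was 7.15 to 7.57 in the MPTP prefrontal arrays and 6.35 to 6.55 in replicates 3 and 4. TgR naive replicates 1 and 2 also stood apart from those of TgS and FVB/N, with the dap poly-A control at 7.42 and 7.05, against 4.13 to 4.42, and the 5′ minus 3′ actin signal down to -2.30 in TgR replicate 2, against -1.20 to -0.79. The region labels were checked on Neurod6, a transcription factor of cortical glutamatergic neurons, at 9.57 to 10.75 in prefrontal cortex against 5.12 to 8.37 in CPu, and on Drd2, a dopamine receptor of striatal neurons, at 6.25 to 8.16 in prefrontal cortex against 10.74 to 11.43 in CPu. Each comparison came from limma over all 22626 probe sets with a term for the 2 array sets. With it, the prefrontal MPTP difference and the naive regional difference averaged over strains rest on naive replicates 1 and 2. They set female naive arrays against male MPTP or CPu arrays, so sex cannot be told apart from MPTP or region in them. The same values against naive replicates 3 and 4, male like the MPTP and CPu arrays, are given beside them. An adjusted p under 0.05 by Benjamini-Hochberg is called a change, errors after ± in differences are standard errors (SE), and the dissected tissue holds many cell types, so more expressing cells and more RNA per cell cannot be told apart.

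The immediate early genes varied more between arrays of a group than most genes. Residual SD was 0.60 for Egr2, 0.53 for Arc and 0.50 for Fos, against a median of 0.115 over all probe sets, which puts these at the 98.9, 98.5 and 98.3 percentiles. Dusp6 varied least, with an SD of 0.18 at the 84.1 percentile, and Ptgs2 had 0.23. The genes also varied together. Across the 18 prefrontal arrays, Pearson's r over the 36 pairs of the 9 genes without Ptgs2 ran from 0.449 to 0.949 with a median of 0.815, and across the 11 CPu arrays from 0.0647 to 0.901 with a median of 0.567. After group and set means were taken out, the median r of these pairs over 29 arrays was 0.82. Pairs with Ptgs2 had a median r of 0.246 on that scale (9 pairs, 0.168 to 0.418). These correlations are descriptions; the points share strain, treatment and array.

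In prefrontal cortex the high end of this shared order held naive replicates 1 and 2 of TgS and FVB/N, and the low end TgR arrays. TgR naive replicate 3 was among the 3 lowest of 18 prefrontal arrays for 10 of 10 genes, TgR MPTP replicate 1 for 7 and TgR naive replicate 1 for 6. TgS naive replicate 2 was among the 3 highest for 7 genes, TgS naive replicate 1 for 6 and FVB/N naive replicate 1 for 5. These high arrays belong to the naive set that read as female. The mean of the genes' z scores within the prefrontal cortex was -1.50 in TgR naive replicate 3. It was 1.06 and 0.97 in TgS naive replicates 1 and 2, and 0.94 and 0.86 in FVB/N naive replicates 2 and 1. In the CPu it was lowest in TgR naive replicate 2, at -1.38, and highest in FVB/N naive replicate 1, at 1.08. By Pearson's r with this mean over the 18 prefrontal arrays, the genes outside the set with the most similar profile were Egr4 (0.954), Dusp1 (0.915), Gadd45b (0.882), Sik1 (0.880) and Phf23 (0.863). Egr4 and Dusp1, a zinc finger transcription factor and a MAP kinase phosphatase, also came first over all 29 arrays, with r of 0.906 and 0.907.

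**Figure D1:**
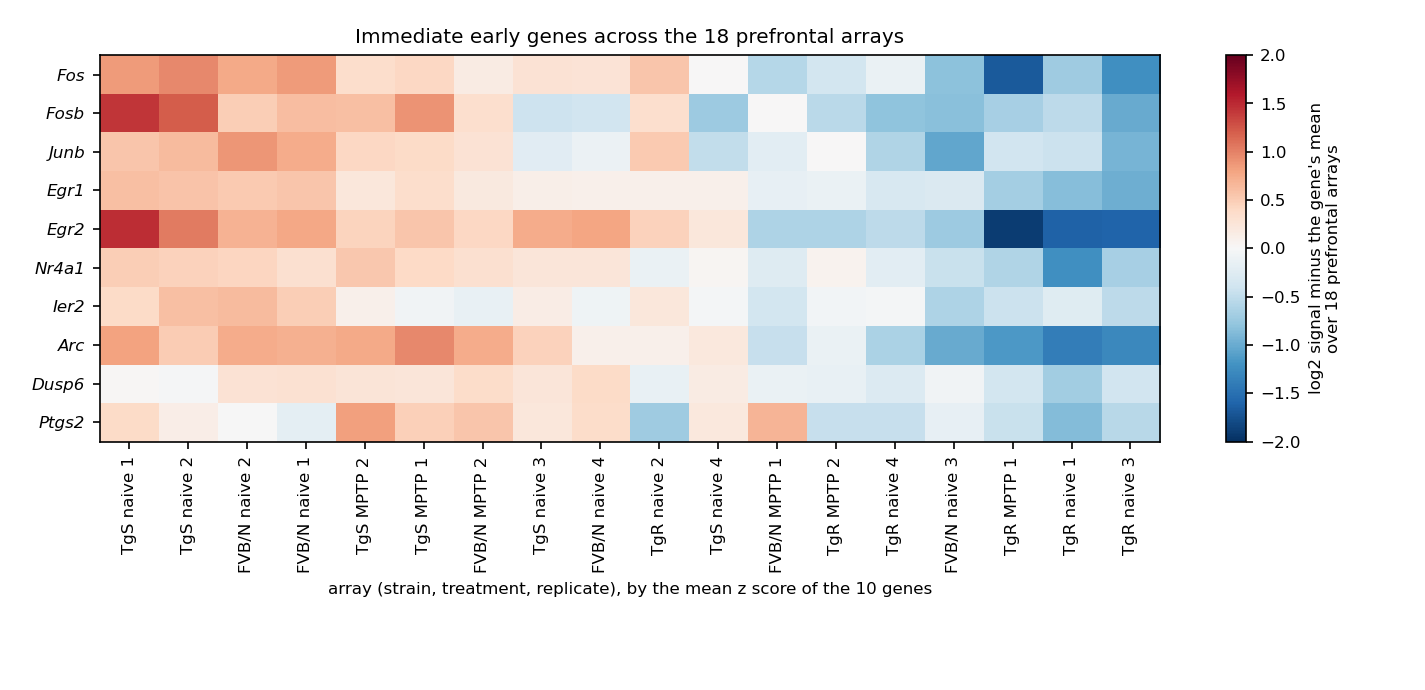
Each cell is a gene's log2 signal in one prefrontal array minus that gene's mean over the 18 prefrontal arrays, with red above and blue below the mean; columns are arrays in the order of the mean z score of the 10 genes. Most genes share high values in naive replicates 1 and 2 of TgS and FVB/N on the left. They share low values in TgR naive replicates 1 and 3 and TgR MPTP replicate 1 on the right. Ptgs2 is also high in the MPTP arrays of TgS and FVB/N.

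Within the naive prefrontal cortex the 2 array sets differed, and sex as read above differed with them. In replicates 1 and 2 against replicates 3 and 4, 5 of 10 genes were higher and none lower, where 53.7% of all probe sets were called in either direction and 34.7% higher. Fosb read 9.31, 9.09, 7.35, 8.21, 8.49 and 8.37 in replicates 1 and 2 of TgS, TgR and FVB/N, against 7.47, 7.15, 6.87, 7.08, 7.04 and 7.49 in replicates 3 and 4 of the same strains. Only TgR replicate 1 falls within the range of replicates 3 and 4. The Fosb difference was 1.29 ± 0.16 log2 (limma, Benjamini-Hochberg adjusted p = 2.03e-06), followed by Junb with 1.05 ± 0.18 (8.42e-05), Fos with 0.82 (0.0143), Ier2 with 0.54 (0.0014) and Egr1 with 0.46 (0.0095). The brighter Ptgs2 probe set showed -0.15 without passing the test, and the other fell by 0.40 (adjusted p = 0.000769 in limma). All 10 genes had overlapping arrays between the sets, with 10.6% of probe sets higher without overlap.

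Other gene groups moved with the array set. Of other inducible transcription factors 11 of 18 were higher and 1 lower, and of other rapid effector genes 11 of 19 were higher and 1 lower. Endothelial and mural markers were higher in 9 of 9, with a mean level of 8.40 to 8.65 log2 in replicates 1 and 2, against 7.47 to 8.28 in replicates 3 and 4. Striatal markers were higher in 5 of 6, olfactory bulb markers in 4 of 5 and meningeal markers in 5 of 8. Array values have no true zero, so no marker can be called absent, and the part of these markers in the difference was not tested.

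Most of the immediate early genes read higher in prefrontal arrays than in CPu arrays, and the number called depended on the naive arrays used. In naive mice 10 of 10 genes were higher in prefrontal cortex, with 60.1% of all probe sets called in either direction and 34.9% higher. Here female prefrontal replicates 1 and 2 were set against male CPu arrays, so region and sex cannot be told apart. The bioB control differed as well, at 7.26 to 7.89 in these prefrontal arrays, against 6.59 to 6.87 in naive CPu. Ptgs2 spanned 6.34 to 7.59 in the 6 naive prefrontal arrays of replicates 1 and 2, with a median of 7.10, against 4.37 to 5.70 in naive CPu, and no arrays overlapped, as for Ier2 and 13.3% of probe sets. Its difference was 2.07 ± 0.12 log2 (limma, Benjamini-Hochberg adjusted p = 4.67e-11), and those of Ier2 (1.47), Fos (1.45), Fosb (1.26), Arc (1.19) and Junb (0.94) came next. Naive replicates 3 and 4 read as male, with bioB at 6.48 to 6.97, overlapping that of naive CPu. Against them the count was 5 of 10 (53.2% of probe sets called, 23.8% higher): Ptgs2 2.22, Ier2 0.93, Dusp6 0.89, Fos 0.63 and Nr4a1 0.43. In that fit the AP-1 subunits Fosb and Junb had differences of -0.03 and -0.11. In MPTP-exposed mice 9 of 10 were higher in prefrontal cortex, all but Egr2 (43.0% of probe sets called, 19.7% higher), led by Ptgs2 with 1.53 and Dusp6 with 0.94. The MPTP arrays differed in bioB between regions, at 7.32 to 7.76 in prefrontal cortex, against 6.30 to 6.92 in CPu. Region and what made this control differ cannot be told apart there. Only Dusp6 and Ier2 had MPTP prefrontal arrays wholly above the MPTP CPu arrays, where 14.7% of probe sets did so.

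**Figure D2:**
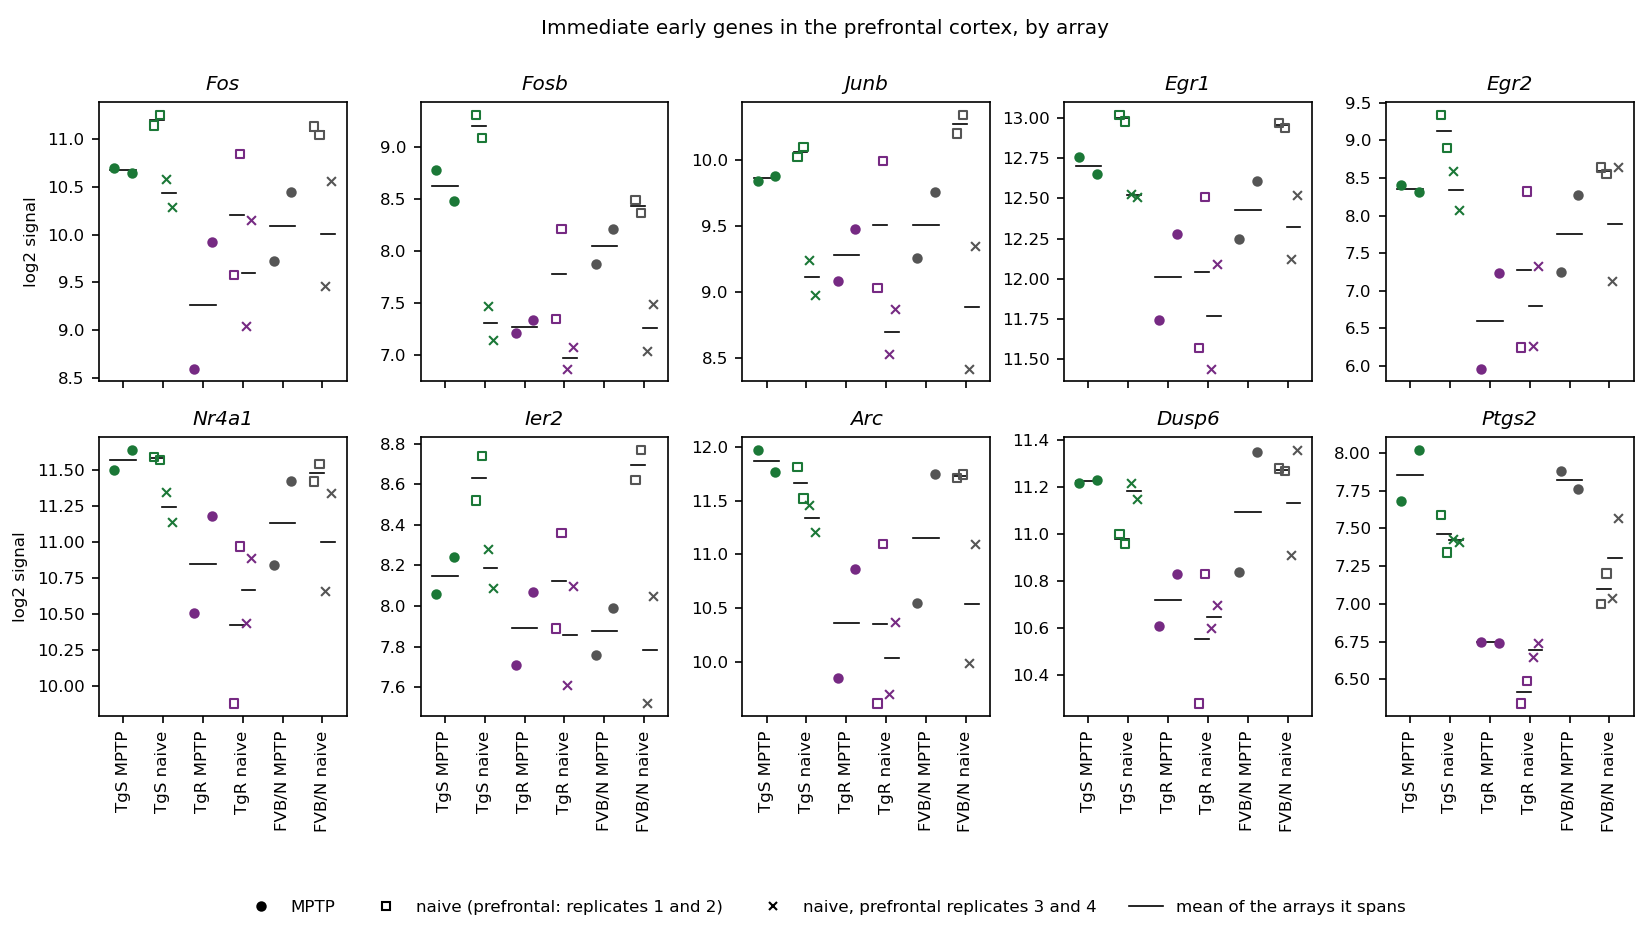
Log2 signal of each gene (vertical axis, its own range per panel) in every prefrontal array, by strain and treatment; short lines are means of the arrays they span, and crosses are naive replicates 3 and 4. TgR arrays lie lowest for most genes, and Fosb and Junb show the widest gap between the 2 naive sets.

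MPTP in the CPu was accompanied by higher Ptgs2 and by no called change in the other 9 genes. Ptgs2 read 6.21 and 6.83 in MPTP TgS CPu, against 4.75 and 4.37 in naive TgS CPu. It read 5.14 in the MPTP TgR array, against 4.83 and 4.51 in naive TgR. In FVB/N it read 6.42 and 5.90 with MPTP, against 5.70 and 5.37 in naive mice. In this brighter probe set all MPTP arrays lay above all naive arrays within each strain, and across strains the ranges overlapped. The dimmer probe set kept this separation in TgS alone. There FVB/N had 6.08 and 5.80 with MPTP against 5.60 and 5.84, and TgR had 5.51 against 5.31 and 5.52. Averaged over strains Ptgs2 was 1.02 ± 0.13 log2 or 2.03-fold higher with MPTP (limma, Benjamini-Hochberg adjusted p = 0.00041), 1 of 10 genes called where 1.43% of all probe sets were, 0.884% higher. Its dimmer probe set showed 0.37, at an adjusted p of 0.053 in limma.

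By strain, the CPu difference was called in TgS. In TgS Ptgs2 was 1.96 ± 0.21 log2 or 3.89-fold higher with MPTP (limma, Benjamini-Hochberg adjusted p = 7.44e-05; 1.41% of probe sets called), and the dimmer probe set rose by 0.79 (adjusted p = 0.00814). The naive TgS values behind the 3.89-fold difference, 4.75 and 4.37, lie near those of the Y-linked Eif2s3y and Kdm5d in the female arrays (3.42 to 4.32). The size of that fold is therefore uncertain. In FVB/N the brighter probe set differed by 0.63 ± 0.21 and in TgR by 0.47 ± 0.26. Neither passed the test, where 0.265% and 0.110% of probe sets were called. The MPTP difference in TgS minus that in FVB/N was 1.34 ± 0.30 (limma interaction, adjusted p = 0.0463; 0.601% called), a call lost in 20 leave-one-out fits. For TgR minus FVB/N none of 10 genes was called by limma or had an unadjusted p under 0.05, where 0.181% of probe sets were called. The naive TgS CPu arrays were themselves low for the brighter Ptgs2 probe set: TgS minus FVB/N in naive CPu was -0.98 ± 0.21 (adjusted p = 0.0168, limma; 2.19% of probe sets called), which was lost without naive FVB/N replicate 1 or without naive TgS replicate 2. In the dimmer probe set the naive means were 5.495 in TgS and 5.72 in FVB/N, and the MPTP means 6.28 and 5.94. Both the naive strain difference and the strain difference in the MPTP effect were thus smaller in it.

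Markers of neighbouring tissue also differed between these CPu groups, not in the same direction in every strain. The mean level of cortical glutamatergic markers was 7.996 to 8.139 in MPTP TgS CPu, against 7.33 to 7.40 in naive TgS CPu, and 3 of 7 were called higher. Neurod6 stood at 7.39 and 7.49 in MPTP TgS CPu, against 5.13 and 5.61 in naive TgS CPu. In FVB/N CPu the cortical level lay the other way, at 7.44 to 7.77 with MPTP, against 7.97 to 8.28 in naive mice, and in TgR it was 8.02 with MPTP, against 7.74 to 7.75. Thalamic markers fell in 3 of 6 in TgS, at 7.68 to 7.72 with MPTP, against 8.14 to 8.47 in naive mice, and choroid plexus markers in 1 of 5, at 7.79 to 7.97, against 8.81 to 8.95. Between naive TgS and naive FVB/N CPu, 3 of 7 cortical markers were lower in TgS and 3 of 6 thalamic markers were higher, the thalamic level being 8.14 to 8.47 in TgS, against 7.57 to 7.62 in FVB/N. Ptgs2 itself was higher in prefrontal cortex than in CPu, and the part of neighbouring tissue in its CPu differences was not tested.

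The remaining genes showed small CPu differences. Fos ran from 8.53 to 9.63 with a median of 9.56 in the 5 MPTP CPu arrays, against 8.40 to 9.73 with a median of 9.52 in the 6 naive arrays. Egr2 ran from 6.76 to 7.28 with MPTP, against 7.15 to 7.83 in naive CPu, a difference of -0.48 that did not pass (adjusted p = 0.662, limma). Egr1 (-0.15) and Fosb (0.19) did not pass either, and for 0 of 10 genes were MPTP and naive CPu arrays free of overlap, with 1.08% of probe sets higher and 0.548% lower in that way.

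Of the wider activity program, 3 of 19 rapid effector genes rose in MPTP CPu and none fell: Sgk1, a serum- and glucocorticoid-induced kinase, by 0.77 log2 (limma, Benjamini-Hochberg adjusted p = 2e-04), Ier3, a stress-response gene, by 0.47 (0.0235), and Zfp36, a protein that speeds decay of inflammatory mRNAs, by 0.36 (0.0461). None of 18 other inducible transcription factors or 7 secreted and synaptic genes was called. Microglial markers rose in 5 of 8, among them the complement genes C1qc (1.00), C1qb (0.92) and C1qa (0.72). Their mean level was 9.42 to 9.70 in MPTP CPu, against 8.98 to 9.24 in naive CPu, without overlap. Meningeal markers fell in 4 of 8, among them Igf2 with -0.69. The part of these cells in the Ptgs2 difference was not tested.

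**Figure D3:**
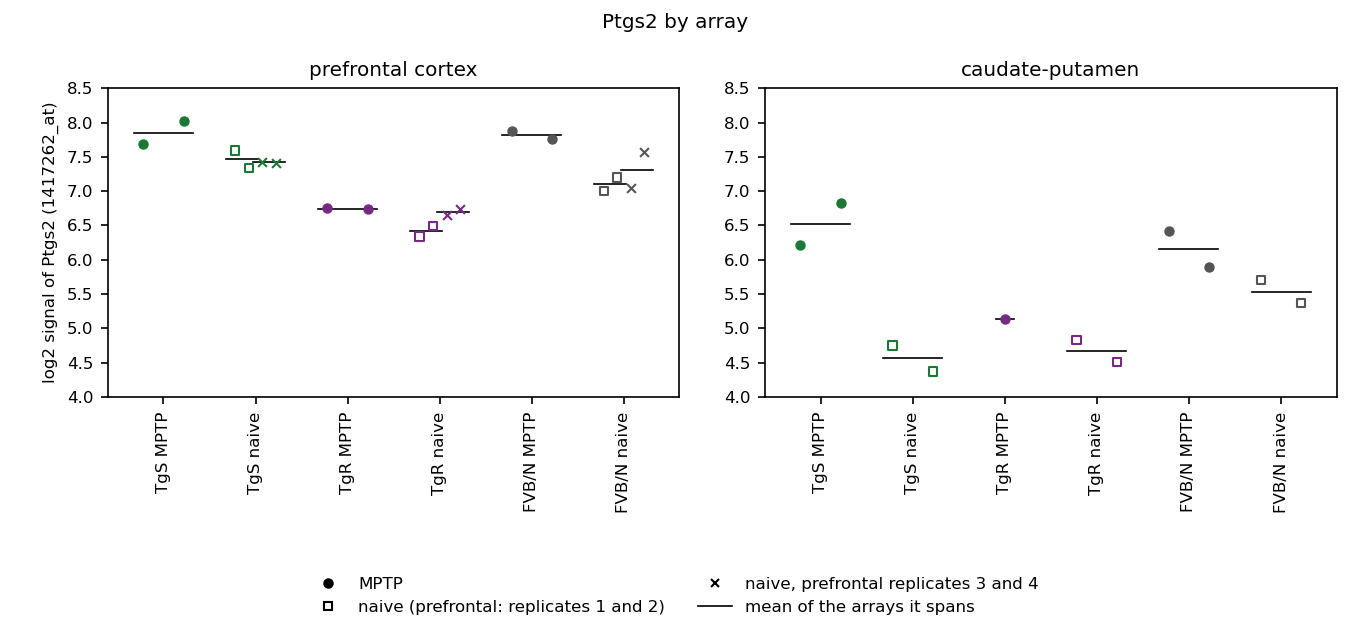
Log2 signal of the brighter Ptgs2 probe set in each prefrontal (left) and CPu (right) array by strain and treatment, on one scale; short lines are means of the arrays they span. In the CPu the MPTP arrays of each strain lie above its naive arrays, with the widest gap in TgS, and the TgR arrays lie lowest in the prefrontal cortex.

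In the prefrontal cortex the genes called changed with MPTP differed with the naive arrays used, and Ptgs2 was called higher against both sets. Against naive replicates 1 and 2, 1 gene rose and 4 fell, with 60.9% of all probe sets called, 22.9% higher and 38.0% lower. That comparison sets male MPTP arrays against female naive arrays, so MPTP and sex cannot be told apart in it. Against naive replicates 3 and 4, 3 genes rose and none fell, with 50.5% called, 28.5% higher. That comparison sets apart arrays that also differ in the bioB and dap controls, as given above. MPTP and what made these controls differ cannot be told apart in it. With either naive set, the counts of called genes do not stand out from the shares over all probe sets. For none of the 10 genes were the MPTP arrays free of overlap with either naive set, whereas 11.9% of probe sets lay wholly higher and 11.2% wholly lower than the first set, and 12.5% and 8.42% than the second.

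Fosb changed direction. It ran from 7.21 to 8.78 with a median of 8.05 in the 6 MPTP prefrontal arrays, against 7.35 to 9.31 (median 8.43) in naive replicates 1 and 2 and 6.87 to 7.49 (median 7.12) in naive replicates 3 and 4. The median of the MPTP arrays lay between those of the naive sets, and single MPTP arrays fell within the range of each. The difference was -0.49 ± 0.16 log2 against the first (limma, Benjamini-Hochberg adjusted p = 0.0114) and 0.80 ± 0.09 against the second (adjusted p = 2.79e-06). Junb had 9.08 to 9.88 (median 9.62) with MPTP, against 9.03 to 10.34 (median 10.06) and 8.42 to 9.35 (median 8.93), and its differences were -0.40 (0.0615, not called) and 0.65 ± 0.16 (0.00257).

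Fos, Egr2 and Ier2 fell against naive replicates 1 and 2 alone. Fos ran from 8.60 to 10.70 (median 10.19) with MPTP, against 9.58 to 11.25 (median 11.09) in replicates 1 and 2 and 9.05 to 10.58 (median 10.22) in replicates 3 and 4. Its differences were -0.83 ± 0.26 (limma, Benjamini-Hochberg adjusted p = 0.0117) and -0.01. Those of Egr2 were -0.76 ± 0.31 (0.0436, a call lost in 15 of 29 leave-one-out fits) and -0.10, and those of Ier2 -0.51 ± 0.13 (0.0019) and 0.03. The remaining Egr1, Arc, Nr4a1 and Dusp6, between -0.28 and 0.08 against the first set and between 0.02 and 0.49 against the second, did not pass with either. Without MPTP TgR replicate 1 the calls of Fos and Egr2 were lost and the number called against replicates 1 and 2 was 3.

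Ptgs2 rose with MPTP against both naive sets. It read 7.68 and 8.02 in MPTP TgS, against 7.59, 7.34, 7.43 and 7.41 in naive TgS. In TgR it read 6.75 and 6.74 with MPTP, against 6.34, 6.49, 6.65 and 6.74 in naive mice. In FVB/N it read 7.88 and 7.76 with MPTP, against 7.00, 7.20, 7.04 and 7.57. In this brighter probe set MPTP arrays lay above or level with every naive array of their own strain, while strains overlapped. In the dimmer one MPTP TgR replicate 2 read 6.64, below naive TgR replicates 3 and 4 at 6.77 and 6.67. The differences were 0.48 ± 0.12 against replicates 1 and 2 (limma, Benjamini-Hochberg adjusted p = 0.00262) and 0.33 ± 0.12 against replicates 3 and 4 (0.0354), and the dimmer probe set gave 0.91 (8.34e-08) and 0.51 (0.000126).

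Within strains few prefrontal genes passed, and through the set term the first values below refer to the level of naive replicates 1 and 2. In TgS Ier2 fell by 0.53 (limma, Benjamini-Hochberg adjusted p = 0.0406; 40.6% of probe sets called). In TgR Fos fell by 1.05 (0.0481) and Fosb by 0.75 (0.0203), with 43.7% called. The Fos value rests on single arrays: it was -0.39 without MPTP TgR replicate 1 and -1.71 without replicate 2, and its call was lost in 19 of 29 leave-one-out fits. The Fosb call was lost without either MPTP TgR array or without naive TgR replicate 2. In FVB/N Ier2 fell by 0.64 (0.0252) and Ptgs2 rose by 0.69 (0.0142), with 25.5% called, and both calls were lost without either MPTP FVB/N array. The Ier2 call in TgS was likewise lost without either MPTP TgS array. Beside naive replicates 3 and 4, the MPTP means of Fosb in TgR (7.275, naive 6.975) and Ier2 in FVB/N (7.875, naive 7.785) lay higher. Those of Fos in TgR (9.26, naive 9.60) and Ier2 in TgS (8.15, naive 8.185) lay lower. Against naive replicates 3 and 4, Fosb rose by 1.32 in TgS (1.71e-05; 37.1% called) and by 0.78 in FVB/N (0.0029; 18.9% called), Junb rose by 0.75 in TgS (0.0402), and no gene was called in TgR (22.5%). The MPTP difference itself was not shown to differ between strains: limma called none of 10 genes for TgS minus FVB/N or for TgR minus FVB/N, and none had an unadjusted p under 0.05, with 0.00% and 0.00442% of probe sets called.

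**Figure D4:**
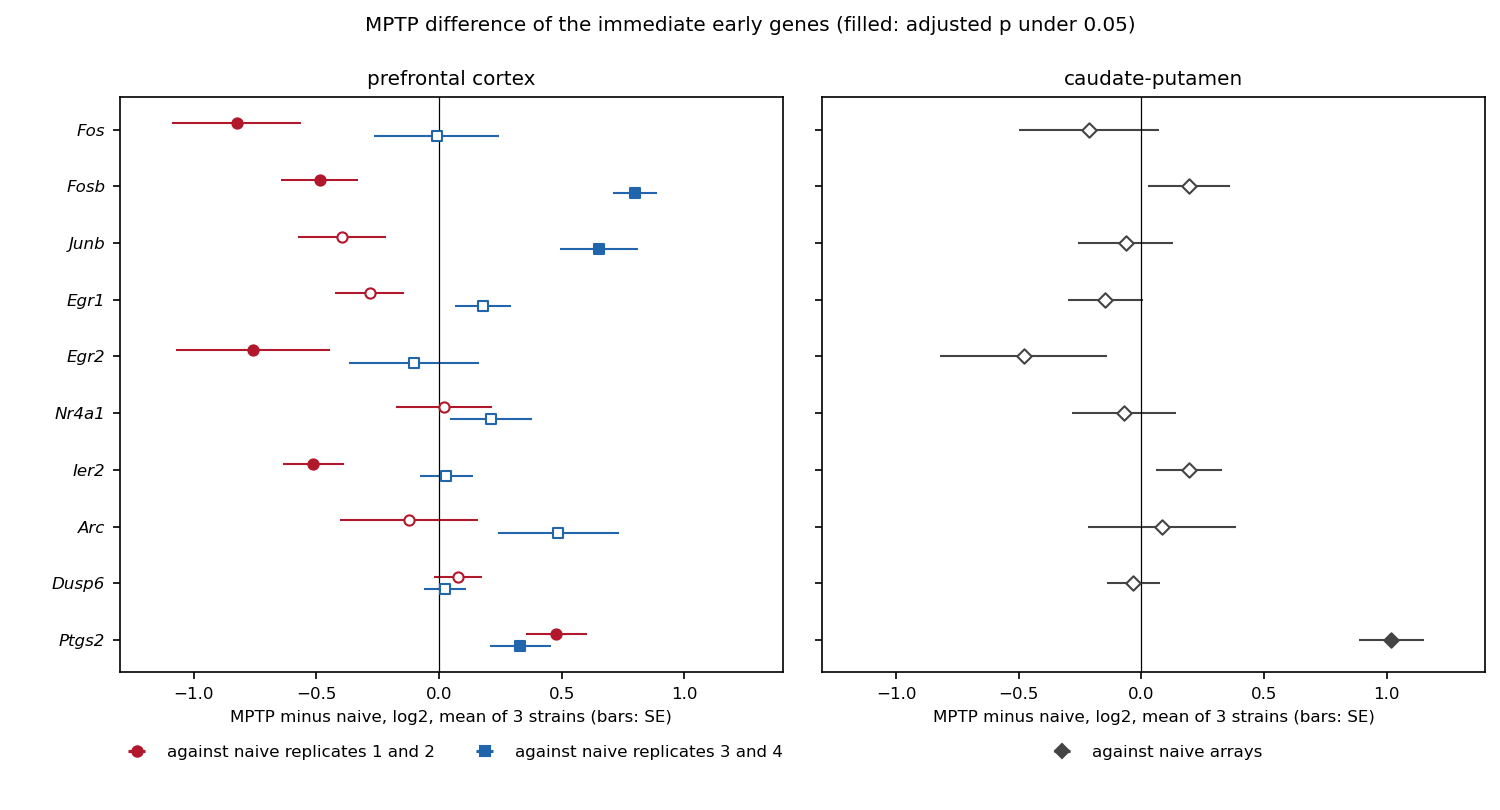
MPTP minus naive difference in log2 (horizontal axis, mean of 3 strains, bars are SE) for each gene in prefrontal cortex (left), against naive replicates 1 and 2 or 3 and 4, and in CPu (right); filled symbols have an adjusted p under 0.05. Ptgs2 lies to the right of zero in all 3 comparisons, and Fosb lies on opposite sides of zero against the 2 naive sets.

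The MPTP difference was set against itself between regions. Prefrontal minus CPu was -0.68 ± 0.23 for Fosb (limma interaction, Benjamini-Hochberg adjusted p = 0.0228), -0.71 for Ier2 (0.00557) and -0.54 ± 0.18 for Ptgs2 (0.0222), with 43.3% of probe sets called. Against naive prefrontal replicates 3 and 4 Fosb stood at 0.61 (0.00281) and Junb at 0.72 (0.0269), both higher in prefrontal cortex, and Ptgs2 at -0.69 (0.00988), with 32.5% called. For Ptgs2 the probe sets disagreed: the dimmer one gave 0.54 (0.00246), the opposite direction. These values carry the sex difference, or the bioB and dap difference, of the prefrontal comparisons they rest on.

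TgS mice had higher levels of these genes than TgR mice. In naive prefrontal cortex 7 of 10 were called higher in TgS, where 18.6% of all probe sets were called and 6.98% were higher. All 10 differences were above 0, with a median of 0.87 against -0.04 over all probe sets. The 7 genes include transcription factors, the synaptic gene Arc, the phosphatase Dusp6 and the enzyme Ptgs2.

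Egr2 values were 9.34, 8.90, 8.60 and 8.08 in naive TgS prefrontal cortex, against 6.24, 8.32, 6.26 and 7.33 in naive TgR. Those of Arc were 11.81, 11.52, 11.46 and 11.21 in TgS arrays, against 9.62, 11.10, 9.71 and 10.37 in TgR. For Arc every TgS array lay above every TgR array, and for Egr2 TgR replicate 2 reached into the TgS range. The differences were 1.69 ± 0.39 log2 or 3.23-fold for Egr2 (limma, Benjamini-Hochberg adjusted p = 0.00696) and 1.30 ± 0.34 for Arc (0.0137). Egr1 was 0.86 ± 0.17 higher (0.00364), Nr4a1 0.87 ± 0.24 (0.0177), Fosb 0.88 ± 0.19 (0.00552), Ptgs2 0.89 ± 0.15 (0.00132) and Dusp6 0.48 ± 0.12 (0.0112). Fos (0.91, 0.0561), Junb (0.48, 0.134) and Ier2 (0.42, 0.0646) did not pass.

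TgR replicate 1 weighed on the count, which was 4 of 10 without it; it is 1 of the 2 TgR arrays whose dap control stood apart. Among naive replicates 3 and 4 dap was 6.35 and 6.44 in TgS, against 6.52 and 6.55 in TgR. Within naive replicates 1 and 2 all TgS arrays lay above all TgR arrays for 10 of 10 genes, against 17.6% of probe sets, and within replicates 3 and 4 for 9 of 10, all but Ier2, against 25.9%. Across all 4 arrays of each line this held for Arc, Dusp6, Nr4a1 and the brighter Ptgs2 probe set, where 2.60% of probe sets did so. The dimmer Ptgs2 probe set overlapped, at 6.55 to 7.19 in TgS (mean 6.90), against 6.29 to 6.77 in TgR (mean 6.56). In the fit without naive replicates 1 and 2, 2 genes were called, Egr1 with 0.76 (limma, adjusted p = 0.038) and Dusp6 with 0.54 (0.0497), and all 10 differences were above 0 (4.79% of probe sets called, 1.65% higher; median difference of the 10 genes 0.65).

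MPTP-exposed prefrontal cortex showed the same direction in arrays of its own. Fosb stood at 8.78 and 8.48 in TgS arrays, against 7.21 and 7.34 in TgR arrays, and was 1.36 ± 0.27 log2 higher (limma, Benjamini-Hochberg adjusted p = 0.0126). Ptgs2, with values given above, was 1.11 ± 0.21 higher (0.00979). These were 2 of 10 called, against 1.14% of all probe sets, 0.570% higher, and all 10 differences were above 0 with a median of 0.92. Both calls were lost without either TgR array or without TgS replicate 2. All TgS arrays lay above all TgR arrays for 9 of 10 genes, all but Ier2, against 21.0% of probe sets.

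In the CPu the tests called fewer. In naive CPu 9 of 10 differences were above 0 with a median of 0.31, none was called by limma (smallest adjusted p 0.319, 1 of 10 at an unadjusted p under 0.05, 0.773% of probe sets called), and 7 genes did not overlap, against 18.7% of probe sets. Nr4a1 stood at 11.08 and 10.61 in naive TgS, against 10.25 and 9.56 in naive TgR. In MPTP CPu Ptgs2 was 1.38 ± 0.26 higher in TgS (limma, Benjamini-Hochberg adjusted p = 0.0118; 1.07% called), a call lost without MPTP TgS replicate 2, and TgR has 1 array there. Of the 10 genes, 9 had TgS arrays wholly above that array, all but Junb, as did 35.4% of probe sets.

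**Figure D5:**
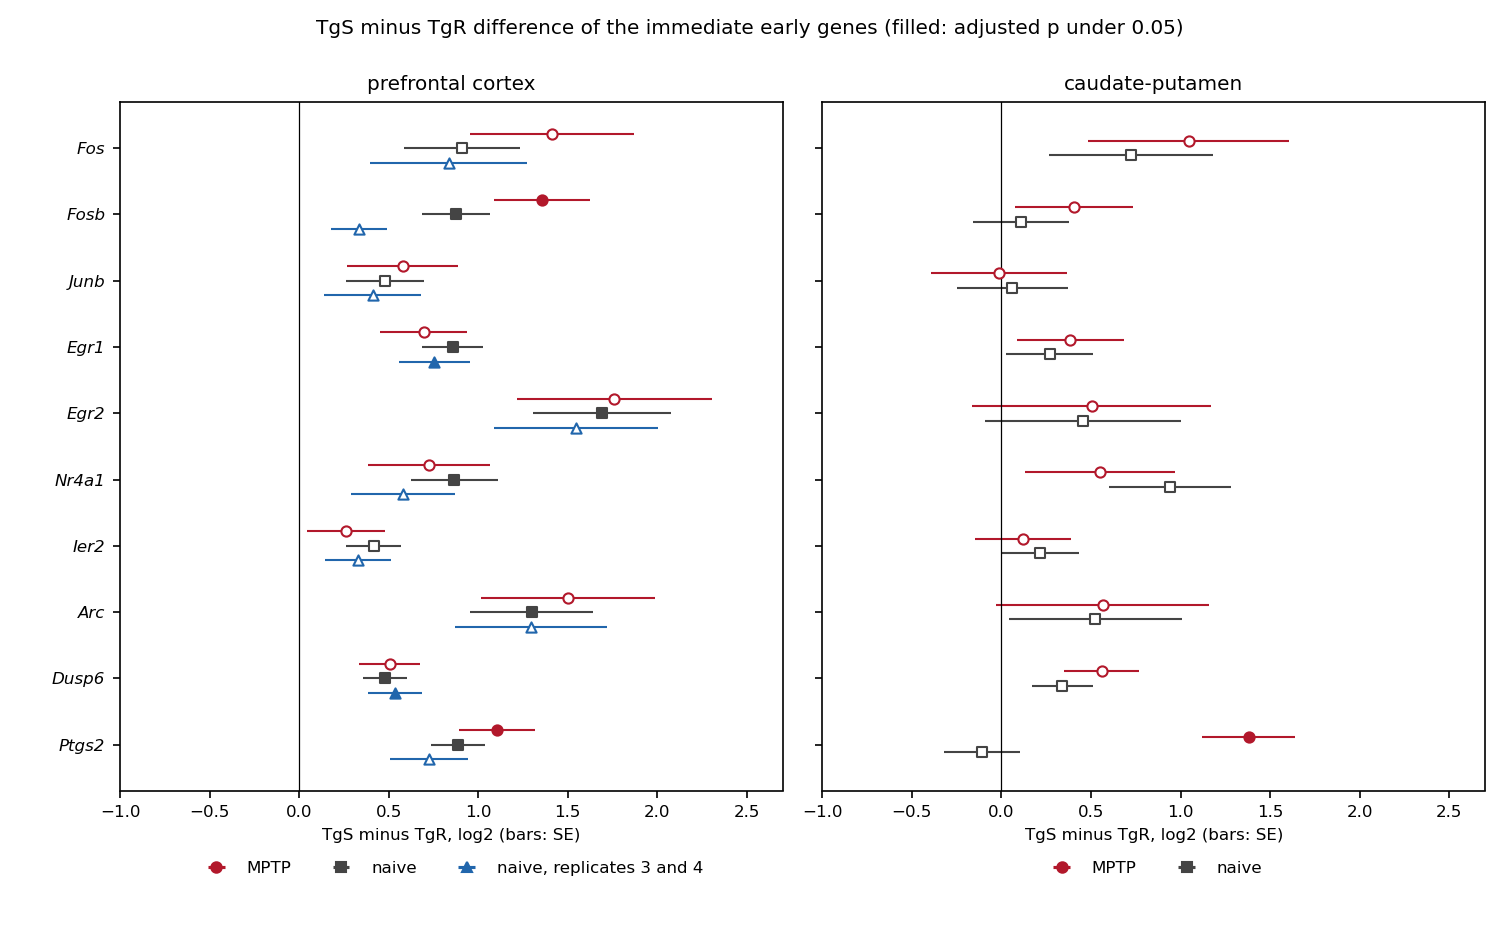
TgS minus TgR difference in log2 (horizontal axis, bars are SE) for each gene in prefrontal cortex (left) and CPu (right), in MPTP mice, naive mice and, for prefrontal cortex, naive replicates 3 and 4 alone; filled symbols have an adjusted p under 0.05. All prefrontal differences lie to the right of zero, and in the CPu the naive Ptgs2 difference and the MPTP Junb difference lie at or left of zero.

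Some other activity-regulated genes differed between TgS and TgR. In naive prefrontal cortex 18.6% of all probe sets were called and 6.98% were higher. In naive prefrontal cortex 3 of 18 other inducible transcription factors were higher in TgS than TgR, Nr4a2 (1.16), Klf10 (0.69) and Egr4 (0.62), and Jun was lower (-0.31). Of rapid effector genes 7 of 19 were higher and 1 lower, with the postsynaptic scaffold gene Homer1 1.58 higher and the small GTPase gene Gem 1.08 lower on the log2 scale (-1.08). Of secreted and synaptic genes 4 of 7 were higher, including the neurotrophin gene Bdnf (0.45) and the prohormone convertase gene Pcsk1 (0.36). Of kinases and factors of the ERK pathway 0 of 10 were called by limma, and of feedback inhibitors of ERK signalling 2 of 7 were higher. In MPTP prefrontal cortex 3 of 18 transcription factors were higher, Nfil3 (1.09), Atf3 (0.98) and Maff (0.80), against 0.570% of all probe sets.

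Cell type markers differed as well in naive mice. In TgS against TgR naive prefrontal cortex 5 of 7 astrocyte markers and 4 of 6 oligodendrocyte markers were lower, and of microglial markers 4 of 8 were lower and 1 higher. The mean astrocyte marker level was 10.26 to 10.32 in TgS replicates 1 and 2, against 10.76 to 10.84 in TgR replicates 1 and 2, and 10.09 to 10.15 in TgS replicates 3 and 4, against 10.44 to 10.48 in TgR replicates 3 and 4. In MPTP prefrontal cortex it was 10.34 in both TgS arrays, against 10.33 and 10.52 in the TgR arrays. Cortical glutamatergic markers were higher in 2 of 7, with a mean level of 9.32 to 9.34 in TgS replicates 1 and 2, against 9.03 to 9.24 in TgR, and of 9.40 to 9.41 in TgS replicates 3 and 4, against 9.06 to 9.22 in TgR, without overlap in either set. In MPTP prefrontal cortex that level was 9.22 to 9.28 in TgS, against 9.07 to 9.25 in TgR, and the ranges overlapped. Olfactory bulb markers stood at 7.36 to 7.89 in TgS replicates 3 and 4, against 8.77 to 9.53 in TgR, and at 9.55 to 9.99 in TgS replicates 1 and 2, against 9.49 to 9.5 in TgR. The part of these cells in the TgS and TgR difference was not tested.

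Against FVB/N, which shares its arrays between the 2 comparisons, TgR stood lower in naive prefrontal cortex. Egr1 read 11.57, 12.51, 11.44 and 12.09 in TgR, against 12.97, 12.94, 12.12 and 12.52 in FVB/N, and the arrays overlapped. Its difference was -0.74 (limma, Benjamini-Hochberg adjusted p = 0.0383), that of Dusp6 -0.60 (0.0294) and that of Ptgs2 -0.65 (0.0382), 3 of 10 called against 2.26% of probe sets, 0.955% lower, and all 10 differences were below 0. The dimmer Ptgs2 probe set had closer means, 6.56 in TgR and 6.76 in FVB/N, and its arrays overlapped. All TgR arrays lay below all FVB/N arrays for 10 of 10 genes within replicates 1 and 2, against 24.2% of probe sets. There the TgR arrays had dap at 7.42 and 7.05, against 4.13 and 4.24 in FVB/N. Within replicates 3 and 4 this order held for 3 of 10 genes, against 15.8% of probe sets. The genes varied together, so such counts are not of separate observations. The number of genes called was 0 without TgR replicate 1, FVB/N replicate 1 or FVB/N replicate 2. It was 1 without TgR replicate 2 or FVB/N replicate 4, 4 without TgR replicate 4 and 7 without FVB/N replicate 3. With naive replicates 1 and 2 left out it was 0, where 0.0486% of probe sets were called. In MPTP prefrontal cortex Ptgs2 was 1 of 10 called, at -1.08 (adjusted p = 0.0396, limma; 0.212% of probe sets), lost without either TgR array or either FVB/N array. In naive CPu 0 of 10 genes were called by limma for TgR against FVB/N, with 4 at an unadjusted p under 0.05 and 0.00% of probe sets called, and for 9 of 10 the TgR arrays lay wholly below, against 20.5% of probe sets. In MPTP CPu it was 0 of 10, with 1 at that level and 1.04% called.

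TgS did not differ from FVB/N by the test in prefrontal cortex. Limma called 0 of 10 genes in naive mice, with 1 at an unadjusted p under 0.05 and 10.9% of probe sets called, and 0 of 10 in MPTP mice, again with 1 at that level and 0.362% called. In MPTP mice all 10 differences were above 0 and 8 genes had TgS arrays wholly above FVB/N arrays, against 18.6% of probe sets. In MPTP CPu 0 of 10 were called, with 1 at an unadjusted p under 0.05 and 0.694% of probe sets called.

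Group means of Ptgs2 in prefrontal cortex ordered as MPTP TgS (7.85 ± 0.24, SD, n = 2), MPTP FVB/N (7.82 ± 0.08), the naive TgS sets (7.47 ± 0.18 and 7.42 ± 0.01), the naive FVB/N sets (7.31 ± 0.37 in replicates 3 and 4, 7.10 ± 0.14 in replicates 1 and 2), MPTP TgR (6.75 ± 0.01) and the naive TgR sets (6.70 ± 0.06 in replicates 3 and 4, 6.42 ± 0.11 in replicates 1 and 2). The neighbouring MPTP TgS and FVB/N groups lie within their SDs, as do the naive TgS and FVB/N sets among themselves and MPTP TgR with naive TgR replicates 3 and 4. The steps from MPTP FVB/N to naive TgS, from naive FVB/N to MPTP TgR and between the naive TgR sets exceed the SDs of both neighbours together. For Fos the order ran from naive TgS replicates 1 and 2 (11.20 ± 0.08) to MPTP TgR (9.26 ± 0.93), and the SDs of TgR and FVB/N groups, up to 0.93, exceeded most steps between neighbours.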

How the data were processed

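Values are the authors' deposited log2 signals of Affymetrix probe sets, for which the submitters' processing notes name RMA, Affymetrix Expression Console and Affymetrix Power Tools. The sources used here give no versions or settings and do not say whether all arrays were summarised together. They were used as deposited with no filter. The table holds 22690 probe sets; 64 controls were left out, and of the 22626 tested 20380 carry 1 symbol, 691 several and 1555 none in the platform annotation. A gene is represented by its brightest single-symbol probe set. There are no detection calls, and precision is limited by how many arrays a group has.

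One linear model in limma 3.58.1 (R 4.3.3) held 12 group means and a term for the array set, with 16 residual degrees of freedom; 28 two-sided comparisons were each adjusted by Benjamini-Hochberg over all probe sets. Groups of 1 or 2 arrays are assumed to vary like the rest. The pipeline was tested on simulated data. All 10 immediate early genes are named; from the wider lists up to 4 called genes per comparison may be. The genes and lists were chosen with earlier results of these data known. Alternatives were no set term, a replicate block, naive prefrontal replicates 1 and 2 left out (6 arrays), each region alone, quantile normalization, each gene as the mean of its probe sets, the dimmest 0.25 left out, and each array left out in turn. Promoters are RefSeq's, build GRCm38.p6.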

Additional observations from a re-analysis of the deposited data

Results flagged for a closer look

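Egr2 in naive FVB/N prefrontal cortex had 1 array far from the other 3: replicate 3 read 7.13 log2, against 8.64, 8.55 and 8.65 in replicates 1, 2 and 4. Its dimmer probe set behaved alike, with 6.49 in replicate 3, against 7.61, 7.53 and 7.55. These were 2 of 36 groups of 4 arrays examined, and chance gives about 1 in 20.

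The MPTP difference was called unequal between the 2 regions for 3 of 10 genes by the interaction test in limma, where 43.3% of all probe sets were called, so the count does not stand out. Prefrontal cortex minus CPu was -0.68 for Fosb, -0.705 for Ier2 and -0.54 for Ptgs2. The Fosb value changed sign against naive prefrontal replicates 3 and 4, and the dimmer Ptgs2 probe set had the opposite sign. In the CPu, where 0.601% of probe sets were called, the Ptgs2 difference in TgS minus that in FVB/N was 1.335 in the brighter probe set and smaller in the dimmer one.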

How the results depend on the processing

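Leaving out the dimmest probe sets kept all 28 counts of called genes. Without the set term, the counts were 1 for MPTP in prefrontal cortex averaged over strains (Fosb 0.16), 0 in each of FVB/N, TgS and TgR, 0 for TgR against FVB/N in naive and in MPTP prefrontal cortex, 1 for TgS against TgR in MPTP prefrontal cortex, 6 and 5 for prefrontal cortex against CPu in naive and MPTP mice, 1 for the regional difference of the MPTP effect and 0 for that of TgS minus FVB/N in CPu. With naive prefrontal replicates 1 and 2 left out they were 3 for MPTP in prefrontal cortex (Fosb 0.80, Ier2 0.03), 1 in FVB/N (Ier2 0.09), 2 in TgS, 0 in TgR (Fosb 0.30), 0 and 2 for TgR against FVB/N in naive and MPTP prefrontal cortex, 1 in MPTP CPu, 2 for TgS against TgR in naive prefrontal cortex, 5 for the naive regional comparison (Fosb -0.028, Junb -0.11) and 3 for the regional MPTP effect (Fosb 0.61). With each region alone they were 2 for MPTP in CPu, 1, 1 and 0 for MPTP in prefrontal cortex of FVB/N, TgS and TgR, 0 for TgR against FVB/N in naive prefrontal cortex, 1 and 2 for TgS against TgR in MPTP prefrontal cortex and CPu, and 0 for TgS minus FVB/N in CPu. Quantile normalization gave 0 for TgR against FVB/N in MPTP prefrontal cortex and 0 for TgS minus FVB/N in CPu, and the mean of all probe sets gave 2 for MPTP in TgS prefrontal cortex and 1 for TgR against FVB/N in MPTP CPu. The causes of these changes were not tested.

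With the replicate block, TgR against FVB/N had 1 called gene in naive and 0 in MPTP prefrontal cortex, and TgS minus FVB/N in CPu had 0; 24 of 27 counts stayed alike. Residuals of same-numbered naive prefrontal arrays correlated at 0.19 to 0.61 without the set term and at -0.67 to 0.20 with it, so the numbers were not taken as pairs. Leaving out each array in turn gave 3 to 7 for MPTP in prefrontal cortex, 0 to 4 in FVB/N, 0 to 2 in TgS and 0 to 4 in TgR. It gave 4 to 9 for TgS against TgR in naive and 0 to 2 in MPTP prefrontal cortex, 0 to 1 in MPTP CPu, 0 to 7 for TgR against FVB/N in naive and 0 to 1 in MPTP prefrontal cortex and MPTP CPu. It gave 0 to 1 for TgS against FVB/N in naive prefrontal cortex, in naive CPu and for their MPTP effects in CPu, 9 to 10 and 6 to 9 for the regions in naive and MPTP mice, and 5 to 7 for the array sets. Of 1581 differences, 0 turned round and 133 lost the call. The number of arrays limits all of this; MPTP TgR CPu has 1.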
